A study of Homo sapiens with 18 samples.

Results

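Proteoglycans are proteins that carry long sulfated sugar chains, and the genes examined here encode 10 of them. The syndecans SDC1, SDC2, SDC3 and SDC4, the glypicans GPC1, GPC4 and GPC6, and CSPG4, VCAN and SRGN were taken by gene symbol from the 21411 genes of the deposited tables, and all 10 had a row. Messenger RNA was sequenced from MDA-MB-231 cells, a human triple-negative breast cancer line, that had been kept for 7 days as spheroids in Matrigel, a basement membrane extract. The 18 libraries come from 6 groups of 3 biological replicates. Jag1WT are the parental cells. Jag1KO cells carry a CRISPR knockout of JAG1 and are a mixture of single-cell clones in equal parts, so that their values average over clones. Jag1KO + rescue are Jag1KO cells given a pcDNA3.1 plasmid with Jagged1 cDNA, and Jag1KO + ctrl are Jag1KO cells given the empty plasmid, both selected with G418. siJag1 are parental cells transfected with a mixture of siRNAs against JAG1 before seeding, and siCtrl received a control siRNA.

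Syndecans span the membrane and carry mainly heparan sulfate, through which they hold growth factors and matrix proteins beside their receptors, while their short cytoplasmic tails bind PDZ proteins and protein kinase C. Glypicans are tied to the membrane by a lipid anchor and also carry heparan sulfate. CSPG4 (NG2) is a transmembrane chondroitin sulfate proteoglycan of melanoma cells, pericytes and some breast cancer cells, VCAN (versican) is a large matrix chondroitin sulfate proteoglycan that binds hyaluronan, and SRGN (serglycin) is a small core protein of secretory granules that many tumor cells secrete. JAG1, the gene changed in this study, encodes Jagged1, a ligand of the Notch receptors, and HES1 and HEY1 are known Notch targets.

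Between 10330581 and 18327890 reads were counted on genes per library. JAG1 lay between 433 and 585 CPM (counts scaled to library size by the TMM method) in Jag1WT and between 116 and 205 in Jag1KO, and it lay between 534 and 657 in Jag1KO + rescue and between 110 and 147 in Jag1KO + ctrl. In siCtrl it lay between 441 and 626 CPM and in siJag1 between 131 and 203, so that JAG1 separated the groups as labeled. The adjusted p for JAG1 with edgeR was 0.0162 for the knockout, 0.0229 for the rescue and 0.111 for the siRNA, the last of which missed the threshold of 0.05. HES1 averaged 15.6 CPM in Jag1WT, 1.90 in Jag1KO, 12.4 in Jag1KO + rescue, 0.881 in Jag1KO + ctrl, 13.3 in siCtrl and 4.42 in siJag1, and HEY1 averaged between 5.79 and 8.25 CPM in all groups. Of the markers of this cell line, VIM lay between 2184 and 4946 CPM and ESR1 at no more than 0.136 CPM, while the luminal markers GATA3 and EPCAM were measured at 5.25 to 11.5 and 5.18 to 8.99 CPM. PGR and CDH1, which this line is known to lack, reached 1.77 and 1.16 CPM in Jag1KO + rescue replicate 1 and no more than 0.300 and 0.226 CPM in the other 17 libraries. The part of this library's difference in the results was not tested, and values without it are given for CSPG4, SRGN and SDC4. Of the markers of other cells, COL1A2 and LUM (fibroblasts), PTPRC and CD3E (blood cells) and CDH5 (endothelium) stayed below 1 CPM in all 18 libraries, whereas PDGFRB (fibroblasts and pericytes) exceeded 1 CPM in 3 libraries and reached 1.35, COL1A1 lay between 2.66 and 10.0 CPM, CD68 between 88.9 and 209, HBB between 0.240 and 7.68, PECAM1 between 0.954 and 15.1 and KDR between 5.74 and 16.9. A list of 26 cell cycle genes varied strongly between libraries of the same group. The mean of its log2(CPM + 1) was highest in Jag1KO replicates 2 and 3 (5.92 and 6.17), Jag1KO + ctrl replicates 1 and 2 (6.26 and 6.74) and siJag1 replicate 2 (6.61), and was between 4.23 and 5.46 in the other 13.

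Differences were tested with edgeR's quasi-likelihood test on the deposited counts, for genes whose deposited CPM exceeded 1 in 3 or more of the 6 libraries of both groups. A gene was called when its Benjamini-Hochberg adjusted p, taken over all genes tested, was below 0.05 and its fold change was above 1.5, which are the study's thresholds. Of the 10 proteoglycan genes, 8 passed the filter in every comparison, and VCAN and GPC4 passed it in none.

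The abundance of the family spanned several orders of magnitude, and SRGN and SDC4 stood far above the rest. Per kb of gene length, SRGN had a median over the 18 libraries of 179.7 CPM per kb and SDC4 of 121.7, and these are higher than 97.8% and 96.5% of the 12757 genes ranked. SDC3 followed with a median of 13.1 CPM per kb, SDC1 with 7.18, SDC2 with 5.01, GPC1 with 3.61 and GPC6 with 2.72. CSPG4 was the lowest of the 8 genes tested, with 0.890 CPM per kb, above 10.8% of the genes ranked. The lowest SDC4 library (86.6 CPM per kb) lay above the highest SDC3 library (23.8), so that SDC4 was the leading syndecan in every library of every group. Of the other neighbors in this order, CSPG4 lay above VCAN in all libraries, and the ranges of the rest over the 18 libraries overlapped. The order of the rest within each library was not examined.

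**Figure D1:**
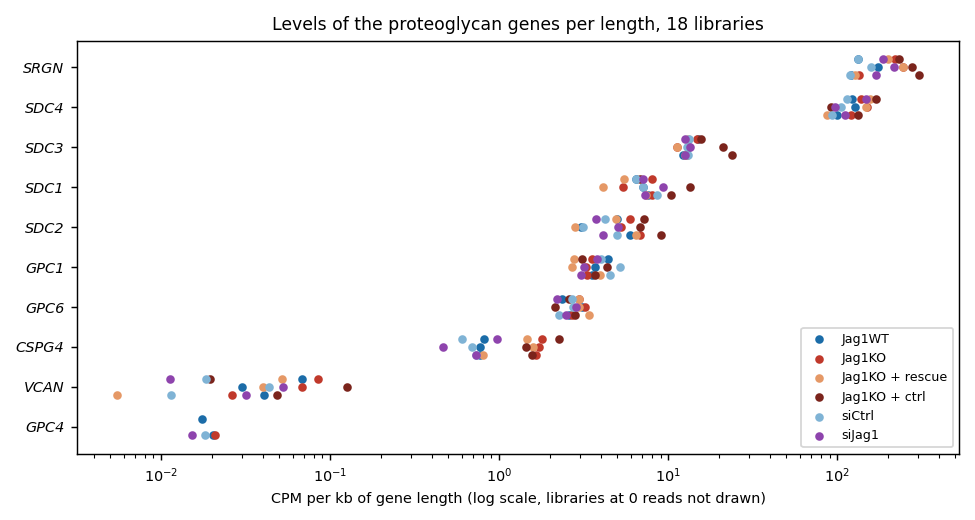
The plot shows the level of each of the 10 genes per kb of gene length on a logarithmic axis, with one point per library colored by group. SRGN and SDC4 lie at the top with medians of 179.7 and 121.7 CPM per kb, CSPG4 at 0.890, and VCAN and GPC4 below 1 in all libraries.

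The promoter windows of 8 members were searched on both strands for GTGGGAA, a core motif of the Notch effector RBPJ, and for GGGCGG, the GC box. Each window is the 250 bases before a transcription start in RefSeq on GRCh38.p14, which need not be the only start of its gene. The windows of GPC6 (chr13:93226557-93226806, gene start at 93216529), SDC3 and CSPG4 lie inside the bounds of their genes. The bases before the outer end of these genes were not examined. SDC1 has a pair of such windows in the table, and SDC2 and SRGN were not examined. None of the 9 windows held GTGGGAA, which occurs in 5.43% of all 35116 windows and in the window of HES1. The GC box was present in 8 of the 9 windows against 42.6% of all windows, and the exception was GPC6, whose window has a GC content of 37.6%. The windows of CSPG4 (chr15:75712849-75713098, minus strand), the only member called in a comparison, of SDC3 (chr1:30908759-30909008, minus strand), which had the lowest p of the members between Jag1KO + rescue and Jag1KO + ctrl, and of SDC4 (chr20:45348425-45348674, minus strand), the most abundant syndecan, are shown 5′ to 3′ with each GC box, on either strand, in capitals.
CSPG4: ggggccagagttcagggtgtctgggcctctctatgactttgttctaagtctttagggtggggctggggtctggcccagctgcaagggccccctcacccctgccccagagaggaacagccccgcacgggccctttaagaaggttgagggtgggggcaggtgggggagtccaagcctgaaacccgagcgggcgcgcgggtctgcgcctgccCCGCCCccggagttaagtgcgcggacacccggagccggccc
SDC3: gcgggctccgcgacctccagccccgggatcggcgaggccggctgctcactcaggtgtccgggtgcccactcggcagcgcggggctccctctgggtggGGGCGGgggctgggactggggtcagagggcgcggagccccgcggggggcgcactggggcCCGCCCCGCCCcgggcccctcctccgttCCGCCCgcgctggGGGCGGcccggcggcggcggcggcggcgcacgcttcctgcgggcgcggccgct
SDC4: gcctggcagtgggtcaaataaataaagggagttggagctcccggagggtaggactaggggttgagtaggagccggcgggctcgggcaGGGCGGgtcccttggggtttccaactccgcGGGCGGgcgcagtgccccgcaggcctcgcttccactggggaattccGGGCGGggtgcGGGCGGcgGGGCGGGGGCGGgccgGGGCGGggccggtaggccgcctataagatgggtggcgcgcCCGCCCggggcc
CSPG4 holds 1 GC box, which begins 41 bases before the start, SDC3 holds 5, of which a pair shares 1 base, and SDC4 holds 8. GPC4, with hardly any reads, holds 2. A match of letters is not evidence of binding, and the absence of GTGGGAA applies to these windows alone.

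CSPG4 was the one member whose level was called different when JAG1 was knocked out, and it was higher in the cells without JAG1. The Jag1WT libraries had 6.37, 6.39 and 6.72 CPM of CSPG4 and the Jag1KO libraries 13.8, 14.2 and 14.8 CPM. The groups did not overlap, and the means were 6.49 ± 0.194 and 14.3 ± 0.523 CPM (SD, n = 3 each). This is a log2 fold change of −1.14 for Jag1WT against Jag1KO (SE 0.154, 95% confidence interval −1.49 to −0.78), or 2.20-fold lower in Jag1WT, with an adjusted p of 0.0202. Across all genes 92 of 12879 were called in this comparison, which is 0.714%, and 1 of the 8 members was. The call rests on 85 to 211 reads per library. It was kept without Jag1KO replicate 1 (adjusted p = 0.00501 with edgeR), where 7.39% of all genes were called. It was lost when any other of the 6 libraries was left out (adjusted p between 0.0911 and 0.144 with edgeR). In those fits 0.0621% to 0.171% of all genes were called. With each of the 6 libraries left out in turn, the log2 fold change stayed between −1.17 and −1.11. RefSeq lists 9 pseudogenes of CSPG4, none of which has a row in the count table, and the authors counted uniquely mapped reads, so reads of a near-identical copy could be lost or misassigned. In these bulk libraries a change in the share of cells or clones that make CSPG4 cannot be told apart from a change in its RNA per cell.

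Neither of the other means of changing JAG1 gave a called difference in CSPG4. Over all genes edgeR called 0.0157% of 12774 in the siRNA comparison, JAG1 not among them, and 0.00778% of 12850 in the rescue, JAG1 alone. The siCtrl libraries had 6.08, 5.73 and 5.02 CPM and the siJag1 libraries 6.07, 3.84 and 8.04, which lie on both sides of the control values. The log2 fold change was −0.08 (SE 0.277, 95% interval −0.72 to 0.57, adjusted p = 0.987 with edgeR). JAG1 RNA averaged 167 CPM in siJag1 and 157 in Jag1KO, and HES1 averaged 4.42 and 1.90 CPM in the same order. The authors checked the knockout by DNA sequencing and Western blot, and RNA left from the edited gene need not encode intact Jagged1. The JAG1 RNA levels therefore do not compare the loss of Jagged1 in siJag1 and Jag1KO. The Jag1KO + rescue libraries had 6.61, 13.1 and 12.1 CPM and the Jag1KO + ctrl libraries 13.0, 11.9 and 18.7. Replicate 1 of the rescue was at the level of Jag1WT and the others were among the controls, and the log2 fold change was −0.46 (SE 0.305, adjusted p = 0.317 with edgeR), or −0.21 without replicate 1 of the rescue (SE 0.252). The difference between the effect in Jag1WT against Jag1KO and that in siCtrl against siJag1 was −1.06 (SE 0.310, 95% interval −1.74 to −0.39, unadjusted p = 0.00511 in the edgeR fit across genes), but it was not called after adjustment (adjusted p = 0.815 in that edgeR fit). In that test 0.11% of 12765 genes were called. CSPG4 in the 9 libraries of Jag1WT, siCtrl and siJag1 lay between 3.84 and 8.04 CPM (median 6.08), and in the 9 libraries derived from Jag1KO between 6.61 and 18.7 (median 13.1). The Jag1KO library with the lowest cell cycle mean (replicate 1, 4.30) had 13.8 CPM of CSPG4, and the pair with high means 14.2 and 14.8. In siJag1 the library with the highest mean (replicate 2, 6.61) had the lowest CSPG4, 3.84 CPM. In Jag1KO + ctrl the library with the lowest mean (replicate 3, 4.63) had the highest CSPG4, 18.7 CPM. In Jag1KO + rescue the library with the highest mean (replicate 2, 5.32) had the highest CSPG4, 13.1 CPM. The part of the cell cycle in CSPG4 was not tested.

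**Figure D2:**
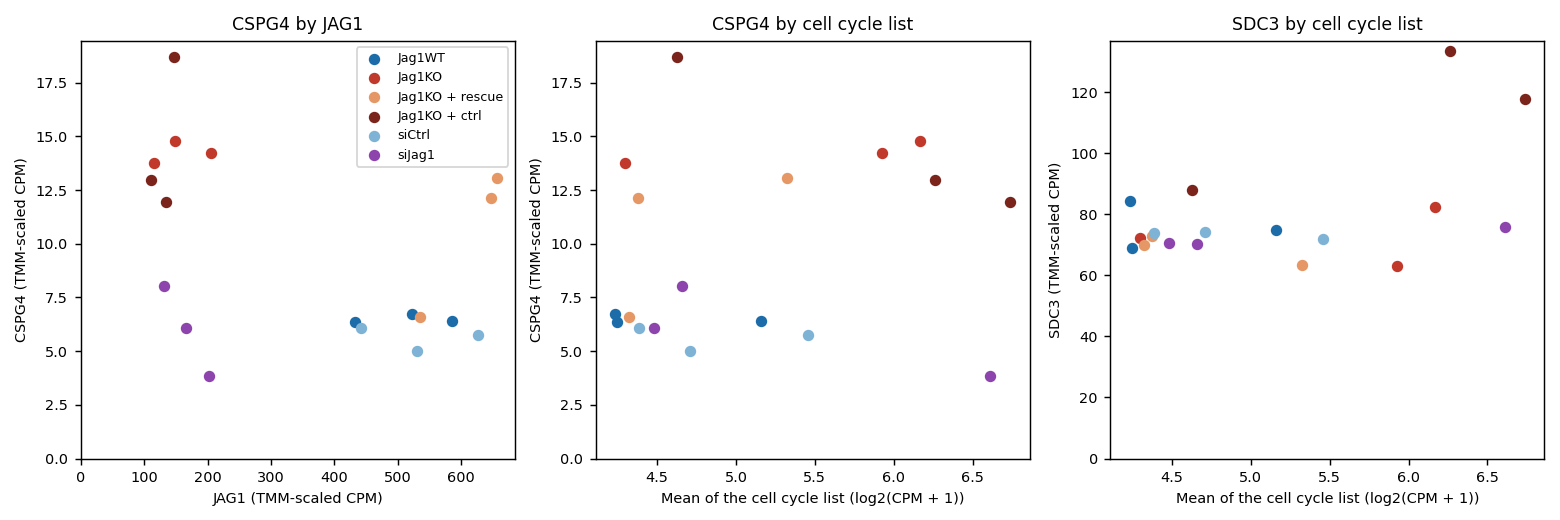
The panels plot CPM of CSPG4 against CPM of JAG1, CPM of CSPG4 against the mean log2(CPM + 1) of 26 cell cycle genes, and CPM of SDC3 against the same mean, with one point per library colored by group. All 3 siJag1 libraries combine low JAG1 with CSPG4 between 3.84 and 8.04 CPM, and the Jag1KO + ctrl libraries with the highest cell cycle means have the highest SDC3 (133 and 118 CPM).

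The genes whose log2(CPM + 1) followed CSPG4 most closely over the 18 libraries, among 12749 genes, were ANKRD36C, one of a set of near-identical genes whose reads are hard to assign (Pearson r = 0.914), LINC00342 (r = 0.907) and AK9 (r = 0.907). These values are descriptions, since the libraries share groups. ANKRD36C averaged 24.5 ± 10.1 CPM in Jag1WT and 63.9 ± 3.80 in Jag1KO (SD, n = 3 each), and 19.0 ± 4.25 and 22.8 ± 3.58 in siCtrl and siJag1. LINC00342, a long noncoding RNA gene, averaged 30.9 ± 13.6 and 71.3 ± 8.38 CPM in Jag1WT and Jag1KO, and AK9, an adenylate kinase gene, 7.52 ± 0.922 and 11.8 ± 0.188. The correlation of CSPG4 was −0.446 with JAG1 and 0.169 with the mean of the cell cycle list.

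The syndecans did not differ by a called amount between Jag1WT and Jag1KO. SDC1, the syndecan of epithelia, averaged 25.5 and 25.9 CPM there, SDC2, a mesenchymal syndecan, 19.7 and 25.4, SDC3, best known from neural tissue, 76.1 and 72.6, and SDC4, a partner of integrins in focal adhesions, 306 and 357. Their log2 fold changes lay between −0.37 (SDC2, SE 0.237) and 0.06 (SDC3, SE 0.135). For siCtrl against siJag1 they lay between −0.19 (SDC4, SE 0.163) and 0.03 (SDC3, SE 0.0909), and the 95% interval for SDC3 was −0.18 to 0.24.

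SDC1, SDC2 and SDC3 were lower in Jag1KO + rescue than in Jag1KO + ctrl by amounts that missed the adjusted threshold. Of all genes in this comparison, 32.5% did not overlap and 30.8% had an unadjusted p below 0.05 with edgeR. SDC3 had 70.0, 63.3 and 73.0 CPM in the rescue and 133, 118 and 87.9 in the control. The groups did not overlap, and the log2 fold change was −0.72 (SE 0.168, 95% interval −1.11 to −0.33, adjusted p = 0.104 with edgeR). SDC1 had 26.6, 14.9 and 19.8 CPM in the rescue and 37.6, 49.0 and 24.7 in the control, where replicate 3 fell within the rescue range, with a log2 fold change of −0.87 (SE 0.294, adjusted p = 0.119 with edgeR). SDC2 had 27.2, 11.9 and 20.8 CPM against 38.5, 28.6 and 30.4, without overlap, and a log2 fold change of −0.71 (SE 0.286, adjusted p = 0.145 with edgeR). SDC4 was spread widely in both groups, from 226 to 408 and from 242 to 445 CPM, with a log2 fold change of −0.03 (SE 0.288), or 0.20 without Jag1KO + rescue replicate 1 (SE 0.265).

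The control group itself stood apart for SDC3. Jag1KO + ctrl averaged 113 CPM of SDC3 while the other 5 groups averaged between 68.8 and 76.1. Against Jag1KO (72.2, 63.1 and 82.4 CPM) the Jag1KO + ctrl libraries did not overlap and were higher by 0.62 on the log2 scale (SE 0.187, adjusted p = 0.757 with edgeR). JAG1 was not changed on purpose between these groups. SDC1 and SDC2 also had their highest group means in Jag1KO + ctrl, 37.1 and 32.5 CPM, against 25.9 and 25.4 in Jag1KO. These differences from Jag1KO were 0.50 (SE 0.276) and 0.34 (SE 0.178) on the log2 scale, with overlap and without a call. Without Jag1KO + ctrl replicate 3, SDC3 was called in both comparisons of the control (−0.87, adjusted p = 0.00426 with edgeR, and 0.79, adjusted p = 0.0499), and SDC1 against the rescue (−1.09, adjusted p = 0.0172). Leaving out that library also raised the share of all genes called to 29.0% of 12850 against the rescue and to 2.39% of 12956 against Jag1KO. DESeq2 and a fit over all 18 libraries also called SDC3 in the rescue comparison (adjusted p = 0.0121 and 0.00502), and the latter called SDC1 (adjusted p = 0.0186), where they called 12.2% and 16.7% of all genes. In Jag1KO + ctrl the libraries with high cell cycle means, replicates 1 and 2, also had the highest SDC3 and SDC1, and its replicate 3, with a cell cycle mean of 4.63, had the lowest. High cell cycle means in Jag1KO replicates 2 and 3 and siJag1 replicate 2 went with SDC3 of 63.1, 82.4 and 75.8 CPM. The part of these differences between libraries in the SDC3 result was not tested.

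**Figure D3:**
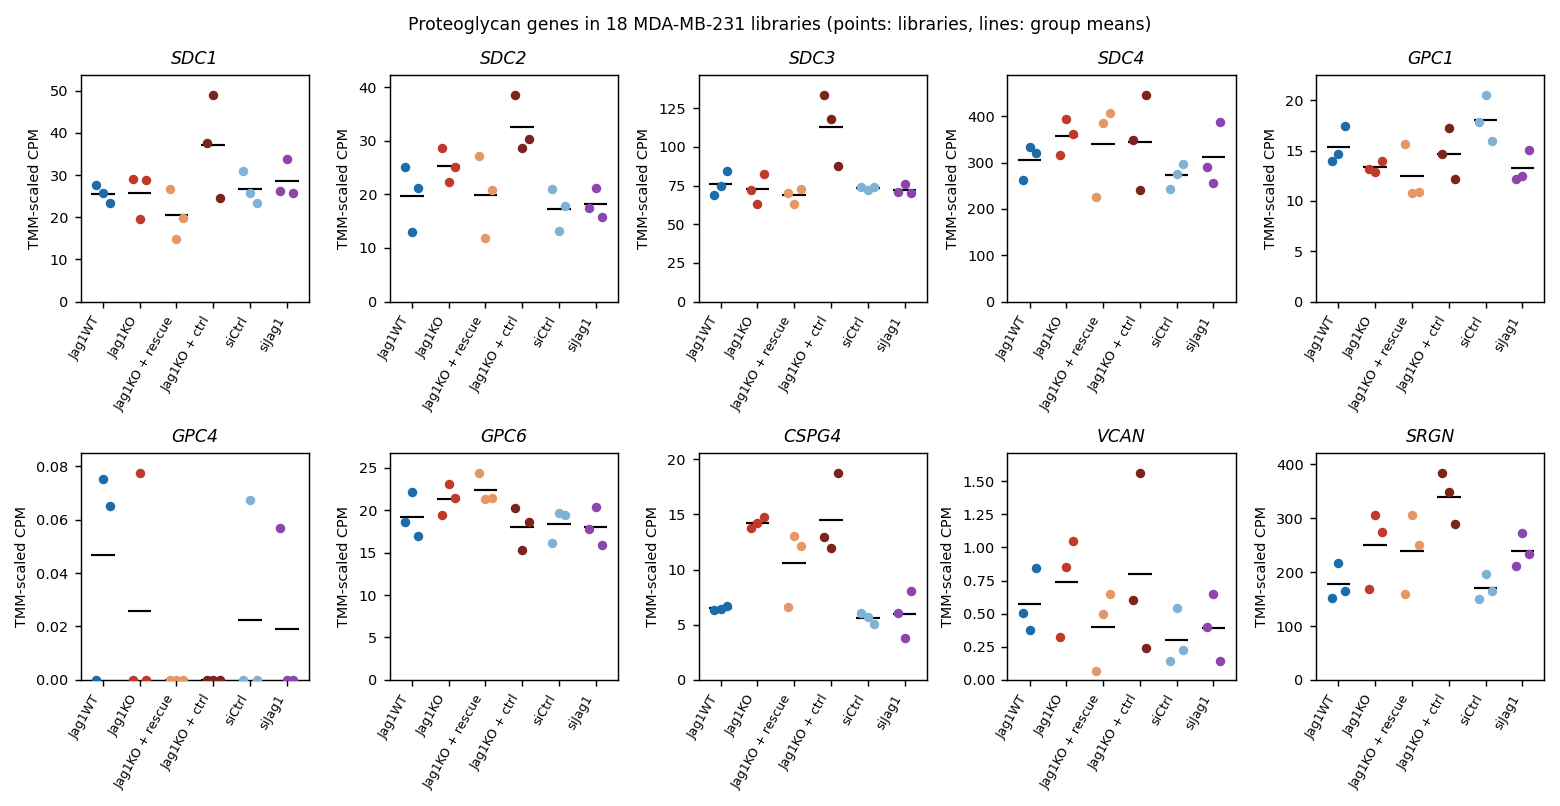
Each panel shows one gene, with the TMM-scaled CPM of every library as a point by group and the group mean as a line on an axis that starts at 0. CSPG4 is at 13.8 to 14.8 CPM in Jag1KO and 6.37 to 6.72 in Jag1WT, and SDC3 is at 87.9 to 133 CPM in Jag1KO + ctrl and at no more than 84.5 elsewhere.

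GPC1, a glypican that is raised in several carcinomas, had a higher mean in Jag1WT than in Jag1KO and in siCtrl than in siJag1, and was called in neither comparison. It had 13.9, 14.7 and 17.5 CPM in Jag1WT and 13.2, 12.9 and 13.9 in Jag1KO, whose nearest libraries both stood at 13.9 CPM, and a log2 fold change of 0.20 (SE 0.156, adjusted p = 0.759 with edgeR). In siCtrl it had 17.8, 20.5 and 15.9 CPM and in siJag1 12.1, 12.5 and 15.1, without overlap. The log2 fold change was 0.46 (SE 0.160, 95% interval 0.09 to 0.83), with an unadjusted p of 0.0219 in the edgeR fit and an adjusted p of 0.970. The rescue did not follow, with 15.7, 10.7 and 10.9 CPM against 14.6, 17.3 and 12.2 in Jag1KO + ctrl (log2 fold change −0.25, SE 0.225). GPC6, a glypican of mesenchymal cells, had the narrowest relative range of the 8 tested genes, between 15.3 and 24.3 CPM over all libraries. It was 1.23-fold higher in Jag1KO + rescue (21.3 to 24.3 CPM) than in Jag1KO + ctrl (15.3 to 20.2), without overlap and without a call (adjusted p = 0.245 with edgeR). GPC4 gave 5 reads in all, 1 in each of 5 libraries, and none in any rescue or Jag1KO + ctrl library. A count of 0 allows up to 3 reads in a library, which is at most 0.287 CPM.

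SRGN had a lower mean with JAG1 in all 3 comparisons and was called in none. It had 152, 217 and 165 CPM in Jag1WT and 169, 306 and 275 in Jag1KO, where replicate 1 lay within the Jag1WT range (log2 fold change −0.50, SE 0.232, adjusted p = 0.596 with edgeR). In Jag1KO + rescue it had 159, 305 and 251 CPM and in Jag1KO + ctrl 383, 349 and 289 (−0.52, SE 0.246, adjusted p = 0.191 with edgeR). The rescue mean of 239 CPM was near the 250.2 CPM of Jag1KO, and Jag1KO + ctrl, at 340.4 CPM, was itself above Jag1KO by 0.43 on the log2 scale without a call (SE 0.233, adjusted p = 0.757 with edgeR). Without Jag1KO + rescue replicate 1 the difference between rescue and control was −0.29 (SE 0.186, adjusted p = 0.374 with edgeR). In siCtrl it had 149.9, 197 and 166 CPM and in siJag1 211, 272 and 233, without overlap (−0.48, SE 0.141, 95% interval −0.80 to −0.15, unadjusted p = 0.00973 in the edgeR fit, adjusted p = 0.970). Without Jag1KO replicate 1 the difference from Jag1WT was −0.72 and was called (adjusted p = 0.0194 with edgeR), as were 952 of 12879 genes, or 7.39%. Within every group but Jag1KO + ctrl, replicate 2 had the highest SRGN. It also had the highest cell cycle mean of its group in Jag1WT (5.16), siCtrl (5.46), Jag1KO + rescue (5.32) and siJag1 (6.61). In Jag1KO replicate 3 had the highest mean (6.17), above replicate 2 (5.92), and replicate 1 had the lowest of both. In Jag1KO + ctrl replicate 3 had the lowest of both, while replicate 1 had the highest SRGN and replicate 2 the highest mean. The part of the cell cycle in SRGN was not tested. VCAN had 1 to 26 reads per library and exceeded 1 CPM in 2 of the 18, with group means between 0.303 CPM in siCtrl and 0.799 in Jag1KO + ctrl. Tested without a filter on level, it was called in none of the 3 comparisons of JAG1, with log2 fold changes of −0.30 (SE 0.547) in Jag1WT against Jag1KO, −0.93 (SE 0.762) in the rescue and −0.40 (SE 0.683) in siCtrl against siJag1.

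**Figure D4:**
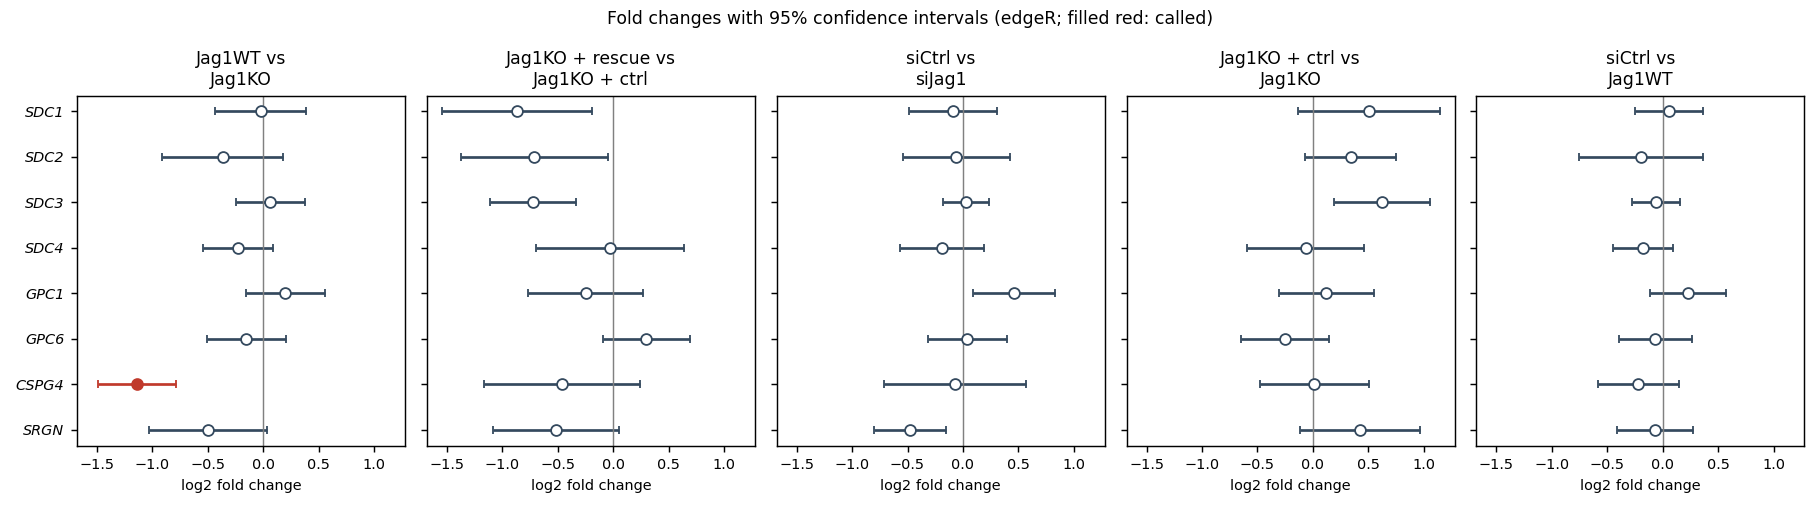
Log2 fold changes of the 8 tested genes (points) with 95% confidence intervals (bars) are drawn for 5 comparisons, the first group against the second, and a filled red point marks a call. CSPG4 in Jag1WT against Jag1KO, at −1.14, is the only call, and the intervals of SRGN lie mostly below 0 in the first 3 panels.

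Over the 8 tested members, 6 were lower and 2 higher in Jag1WT than in Jag1KO, with a median log2 fold change of −0.19 against −0.01 over all genes. Groups did not overlap for CSPG4 and GPC1, 25.0% of the members, as against 13.8% of all genes. The nearest libraries of GPC1 both stood at 13.9 CPM. In Jag1KO + rescue against Jag1KO + ctrl 7 were lower and the median was −0.49, against −0.0024 over all genes. There 3 members (SDC2, SDC3 and GPC6) did not overlap, 37.5% against 32.5% of all genes. None was called with edgeR, which called 0.00778% of 12850 genes, JAG1 alone. An unadjusted p below 0.05 was found for 3 of the 8 members and for 30.8% of all genes, and DESeq2 called 1 of the 8 members and 12.2% of all genes. For siCtrl against siJag1 the median was −0.07, 2 members (GPC1 and SRGN) did not overlap, 25.0% against 10.5% of all genes, and none was called by edgeR or DESeq2, with 2 at an unadjusted p below 0.05, as were 3.83% of all genes. Over all genes the share called was 0.0157% with edgeR, which is 2 genes, or 4 with the replicate number as a block, and 0.196% with DESeq2.

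The control comparisons, in which JAG1 was not changed on purpose, gave no called member. Jag1KO + ctrl against Jag1KO called 0 of 12956 genes with edgeR (0%), where 753 (5.81%) had an unadjusted p below 0.05 and DESeq2 called 13. One member, SDC3, did not overlap and was the 1 with an unadjusted p below 0.05, and 10.1% of all genes did not overlap. Of the 8 members, 6 were higher and 2 lower in Jag1KO + ctrl than in Jag1KO. Their median log2 fold change was 0.23, against −0.014 over all genes. siCtrl against Jag1WT called 0 of 12797 genes (0%), where 176 had an unadjusted p below 0.05, DESeq2 called 0 and the fit with the replicate block 1. There CSPG4 did not overlap (log2 fold change −0.22, SE 0.163), beside 6.3% of all genes, and no member had an unadjusted p below 0.05. In siCtrl 2 of the 8 members were higher and 6 lower than in Jag1WT, with a median of −0.07, against −0.0003 over all genes. Jag1KO + ctrl is shared by the first of these and the rescue comparison, and Jag1KO, Jag1WT and siCtrl by others, so their values are not independent.

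No member was called in the tests of differences between effects. SDC3 came closest, with an effect in Jag1WT against Jag1KO that was 0.81 above that of the rescue (SE 0.224, adjusted p = 0.0876 with edgeR), where 0.555% of 12804 genes were called. Its rescue effect was below that of the siRNA by 0.77 on the log2 scale (SE 0.189, adjusted p = 0.0913 with edgeR), where 0.094% of 12761 genes were called.

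The other genes of the pathway were examined from lists by function. Among other proteoglycan core proteins, 27 of 31 were in the table and 10 were tested in Jag1WT against Jag1KO. COL18A1, the heparan sulfate carrying collagen of basement membranes that yields endostatin, was the 1 called, at 50.0 against 13.9 CPM (log2 fold change 1.85, SE 0.171, adjusted p = 0.00507 with edgeR), and none was called lower. COL18A1 was also higher in siCtrl than in siJag1 without a call (59.9 and 25.8 CPM, adjusted p = 0.125 with edgeR), and in the rescue its log2 fold change had the other sign, −0.86 (SE 0.277). HSPG2 (perlecan) had 15.6 CPM in Jag1KO + rescue and 55.0 in Jag1KO + ctrl, without overlap and without a call (adjusted p = 0.104 with edgeR). TGFBR3 (betaglycan), a co-receptor of TGFβ, had 12.7 and 25.1 CPM there.

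The shedding and turnover list had 8 of 15 genes tested, and 2 were called lower in Jag1WT. Both encode proteases that cleave versican. ADAMTS1 averaged 13.0 CPM in Jag1WT and 44.6 in Jag1KO (log2 fold change −1.79, SE 0.187, adjusted p = 0.00918 with edgeR), and ADAMTS9 averaged 33.8 and 97.1 CPM (−1.53, SE 0.242, adjusted p = 0.0406 with edgeR). In siCtrl against siJag1 they averaged 11.97 and 19.0 CPM and 32.8 and 44.6 CPM without a call, and in the rescue comparison 79.3 and 69.8 CPM and 99.8 and 104 CPM. The median of the list in Jag1WT against Jag1KO was 0.24, since the other 6 genes were higher.

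Enzymes that build the sugar chains gave no call in any of the 3 comparisons of JAG1. Of the chondroitin and dermatan sulfate genes, 15 of 16 were tested, 10 were higher in Jag1WT, 7 did not overlap, where 13.8% of all genes did not, and the median log2 fold change was 0.25. The lowest p values belonged to CSGALNACT1, which starts the chondroitin chain (4.44 and 2.64 CPM, log2 fold change 0.75, SE 0.218, adjusted p = 0.313 with edgeR), and CHST15, which adds a sulfate to chondroitin (79.9 and 55.6 CPM, 0.52, SE 0.164, adjusted p = 0.370). The 14 heparan sulfate genes tested of 25 had a median of 0.02, with HS6ST1 at 11.2 and 7.21 CPM and NDST1 at 145 and 123 CPM as those with the lowest p. In the rescue comparison 7 of these 14 did not overlap, where 32.5% of all genes did not, and the median was −0.15, with HS6ST3 at 4.99 and 11.3 CPM and GLCE, an epimerase, at 30.7 and 45.6 CPM. The linkage region and sulfate donor genes (13 tested of 14) had medians of 0.02, −0.12 and −0.04 in Jag1WT against Jag1KO, the rescue and the siRNA comparison. PXYLP1, a xylose phosphatase, at 4.95 and 3.09 CPM, and UGDH, which makes the glucuronic acid donor, at 79.5 and 71.1 CPM, had the lowest p in the first of these, and PAPSS1, a sulfate donor synthase, in the others.

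The binding partners gave no call either. Among 11 tested partners of the syndecan tails, the medians were 0.02, −0.05 and 0.0049 in the same order. CASK averaged 32.7 CPM in Jag1WT and 27.1 in Jag1KO, ACTN4 386 in Jag1KO + rescue and 954 in Jag1KO + ctrl (adjusted p = 0.104 with edgeR), and GIPC1 124 and 102 in siCtrl and siJag1. Of 6 tested genes of hyaluronan and versican binding, HAS2, the main hyaluronan synthase here, averaged 110 CPM in Jag1WT and 78.8 in Jag1KO without overlap (log2 fold change 0.48, SE 0.172, adjusted p = 0.440 with edgeR), and CEMIP, which degrades hyaluronan, 8.24 and 4.53 CPM in siCtrl and siJag1. The cell cycle list was lower with JAG1 in 26 of 26 genes in each of the 3 comparisons, with medians of −1.25, −1.48 and −0.70, and MCM2, a replication factor, was its only call (28.4 and 48.6 CPM in Jag1WT and Jag1KO, adjusted p = 0.0442 with edgeR). Its summed level ran from 619 to 1251 CPM in Jag1WT, 701 to 2513 in Jag1KO, 721 to 1433 in Jag1KO + rescue, 808 to 3763 in Jag1KO + ctrl, 680.5 to 1537 in siCtrl and 733 to 3456 in siJag1, and its part in the results above was not tested. The list also differed where JAG1 was not changed on purpose, with 25 of 26 genes higher in Jag1KO + ctrl than in Jag1KO (median 0.37) and 25 of 26 higher in siCtrl than in Jag1WT (median 0.33).

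**Figure D5:**
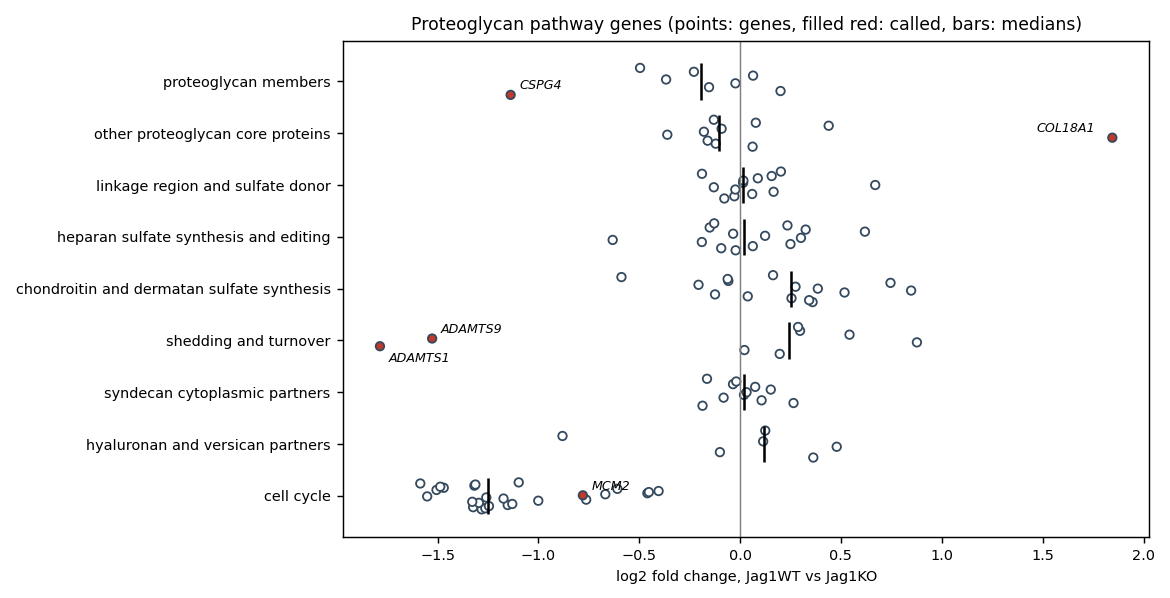
Log2 fold changes in Jag1WT against Jag1KO are drawn for the members and 8 lists of genes, with one point per tested gene, filled red where called, and a bar at the median of each list. CSPG4, COL18A1, ADAMTS1, ADAMTS9 and MCM2 are the calls, and all 26 cell cycle genes lie below 0.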

How the data were processed

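The members and gene lists were chosen with earlier results of these data known. RNA was sequenced by the authors from stranded mRNA libraries of 18 cultures, aligned to hg38 with an aligner not given in the sources used here, and uniquely mapped reads were counted per gene. The submitters' processing notes name featureCounts, edgeR 3.28.0, R 3.6.1 and MultiQC 1.5. The deposited counts are whole numbers, not normalized. The deposited CPM were scaled by the authors with TMM. The deposited RPKM equal that CPM over a single gene length and served only to give that length, and 3 of their columns matched no sample and were not used. Library totals ran from 10330581 to 18327890 reads. Of the rows, 292 had no symbol (at most 0.0442% of a library).

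Counts were tested with edgeR 4.0.16 in R 4.3.3 (quasi-likelihood, TMM) for genes above 1 CPM in at least 3 of 6 libraries, and genes with an adjusted p below 0.05 and a fold above 1.5 were called. The study used ROTS on log2(CPM + 1), which was not run. Standard errors are the log2 fold change divided by the root of F. The script was tested on simulated counts. Alternatives were RLE size factors, DESeq2 1.42.0, limma 3.58.1 on log2(CPM + 1) and log2(CPM + 0.1), no level filter, 1 fit over 18 libraries, the replicate number as a block, each library left out, and the adjusted p alone. Differences of effects were fitted over 12 libraries.

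Same-numbered libraries deviated together in siCtrl and siJag1 (r = 0.543, 0.522 and 0.264) and in siCtrl and Jag1WT (r = 0.595, 0.713 and 0.210). The numbers were therefore taken to pair them, which is read from the data and not from the labels. The main tests did not use this pairing, and the replicate number entered only as the block among the alternatives. The replicates are labeled biological, without their source cultures being given, so p-values measure the spread between these libraries. Replicate pairs differed beyond sampling noise (chi-square per degree of freedom 7.34 to 106). A count of 0 was taken to allow 3 reads, which covers counting error only.

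The named genes are all members, JAG1, HES1 and HEY1, the called genes of each list (at most 5) or otherwise its 2 genes of lowest p, and the 3 genes most correlated with each called member. CD68, COL1A1, KDR, VIM and the other cell markers are named from their lists. COL18A1, ADAMTS1 and ADAMTS9 are followed through the other comparisons because they were called in 1.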

Additional observations from a re-analysis of the deposited data

How the results depend on the processing

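Of the 520 values of members' log2 fold changes recomputed under alternatives, 477 kept direction and side of the threshold, 31 changed sign, 7 were newly called and 5 lost the call, which are the CSPG4 fits named above. Each sign change was in a value that was not called. In Jag1WT against Jag1KO, with each library left out in turn, SDC3 ran from −0.027 to 0.17 and SDC1 from −0.19 to 0.068, and SDC1 was 0.00031 with limma on log2(CPM + 1) and 0.0011 on log2(CPM + 0.1). In the rescue comparison SDC4 ran from −0.23 to 0.21. For siCtrl against siJag1, GPC6 ran from −0.044 to 0.14, CSPG4 from −0.31 to 0.19, SDC1 from −0.22 to 0.050, SDC4 from −0.31 to 0.0015 and SDC2 from −0.23 to 0.11. For Jag1KO + ctrl against Jag1KO, CSPG4 ran from −0.20 to 0.14, was −0.0010 with limma on log2(CPM + 0.1) and −0.017 with the replicate block, GPC1 ran from −0.0097 to 0.25 and SDC4 from −0.28 to 0.14. For siCtrl against Jag1WT, SDC3 ran from −0.13 to 0.028, SRGN from −0.18 to 0.10, GPC6 from −0.14 to 0.044, SDC1 from −0.064 to 0.14 and SDC2 from −0.42 to 0.0080. The cause was not tested.

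Members called with a library left out ran from 0 to 2 in Jag1WT against Jag1KO, from 0 to 2 in the rescue and from 0 to 1 in Jag1KO + ctrl against Jag1KO. In the rescue 1 was called with DESeq2 and 2 with 1 fit over 18 libraries. All genes called in Jag1WT against Jag1KO, 92 in the report, were 235 with DESeq2, 157 without a level filter, 147 with 1 fit over 18 libraries, 282 with the replicate block and 8 to 952 with a library left out, the 952 without Jag1KO replicate 1. In the rescue, 1 in the report, they were 1567 with DESeq2, 2144 with 1 fit over 18 libraries, 2 with limma on either scale, 2 without a level filter, 3 with the replicate block and 0 to 3726 with a library left out, the 3726 without Jag1KO + ctrl replicate 3. For siCtrl against siJag1, 2 in the report, they were 25 with DESeq2, 0 with limma on either scale, 8 without a level filter, 7 with 1 fit over 18 libraries, 4 with the replicate block and 0 to 4 with a library left out. For Jag1KO + ctrl against Jag1KO they were 13 with DESeq2, 1 with 1 fit over 18 libraries and 0 to 310 with a library left out, and for siCtrl against Jag1WT 1 with the replicate block. The replicate block changed no call of a member. In Jag1WT against Jag1KO, the rescue comparison and Jag1KO + ctrl against Jag1KO at least 1 of the 3 same-number correlations was below 0.1. In Jag1WT against Jag1KO they were 0.632, 0.667 and −0.014. Whether the numbers pair the libraries of these comparisons is therefore not settled. CSPG4 had an adjusted p of 0.00934 with the block.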
